A study of Mus musculus with 12 samples.

Results

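The transcripts of the oxidative phosphorylation machinery were measured, complex by complex, in mouse pancreatic neuroendocrine tumors (PanNETs) after sunitinib alone or with rapamycin. Members were the protein-coding mouse genes with symbols beginning Ndufa, Ndufb, Ndufc, Ndufs or Ndufv, Uqcr, Cox4 to Cox8 or Atp5, together with Sdha, Sdhb, Sdhc, Sdhd, Cyc1 and Cycs and the protein-coding genes of mitochondrial DNA. The count tables listed 108 of the 109 annotated members among 38924 gene identifiers. Of the 108, 95 are nuclear genes and 13 are encoded in the mitochondrial genome. The nuclear members comprised 36 genes of complex I, 4 of complex II, 9 of complex III, 20 of complex IV, 17 of complex V, cytochrome c (Cycs) and 8 Ndufaf genes. The Ndufaf genes were taken by the symbol rule but encode assembly factors of complex I rather than subunits, and they were counted apart. Ndufa4 and its paralog Ndufa4l2 carry names of complex I genes and were placed in complex IV, where Ndufa4 is known to reside.

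Complexes I and II feed electrons from NADH and succinate to coenzyme Q, complex III passes them to cytochrome c, and complex IV hands them to oxygen. The protons pumped by complexes I, III and IV drive complex V, the ATP synthase. Complex II is built entirely from nuclear genes, whereas the other complexes combine nuclear subunits with subunits made from mitochondrial DNA, so that both genomes have to be expressed together. In beta cells, the cells from which these tumors arise, the ATP made in this way couples glucose metabolism to insulin release.

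RNA was sequenced from 12 tumors of the RIP1Tag2 model on a C57Bl6 background, in which the rat insulin promoter drives a viral oncogene in beta cells. The 4 control tumors came from mice given saline, 4 tumors from mice given sunitinib, an inhibitor of receptor tyrosine kinases of blood vessel cells, and 4 from mice given rapamycin, an mTOR inhibitor, together with sunitinib (R+S). Per the labels, treatment started at 15.5 weeks of age and lasted 4 days, so all 3 groups carried the same transgene and were of the same age. The comparison asks how disruption of the vasculature, and blocking mTOR on top of it, changed the tumors. Tumors are named by the number in their labels: control 1 to 4, sunitinib 5, 6, 8 and 12, and R+S 4, 5, 7 and 10. The labels do not say whether each tumor came from a separate mouse, so p-values measure the spread between these tumors. The 6 prefixes in the sample titles, whose meaning is not given, never span 2 groups (1 prefix in control, 2 in sunitinib and 3 in R+S), and treatment therefore cannot be told apart from whatever a prefix stands for.

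Reads assigned to genes numbered 31872342 to 44215054 in each library. Levels are given as CPM, the count of a gene relative to the library size after normalization. Bulk RNA holds every cell type of the piece of tissue, and fewer cells of a type cannot be told apart from less RNA per cell. Beta cell markers summed to 42222 to 67325 CPM in control tumors and 47991 to 73355 CPM in R+S tumors, but from 8780 CPM in sunitinib tumor 6 to 84494 CPM in tumor 12. The list was split in tumor 6. Chga, at 2849 CPM, lay within control (2581 to 3325 CPM) and Chgb, at 4075 CPM, above it (1466 to 2554 CPM). The other beta cell markers lay below all control tumors, such as Pdx1 at 4.17 CPM against 313 to 392 CPM. Markers of acinar cells, the enzyme-secreting cells of the surrounding pancreas, summed to 41.7 to 141 CPM in control, 12587 to 44878 CPM in sunitinib and 3364 to 18861 CPM in R+S tumors, and 23 of the 24 tested were higher in each treated group. Endothelial markers summed to 620 to 816 CPM in control tumors, 59.1 to 99.6 CPM in sunitinib tumors and 132 to 170 CPM in R+S tumors. Tumor 6 stood apart from the other sunitinib tumors, with pairwise correlations of log2 CPM across genes of 0.872 to 0.895 against 0.957 to 0.978 among the other 3.

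The summed nuclear subunits of complexes I, III, IV and V had their lowest group mean in R+S and their highest in sunitinib tumors, and complex II and the mitochondrial transcripts followed other orders. Summed over its 36 nuclear genes, complex I measured 2426 ± 237 CPM in control (SD, n = 4), 2926 ± 857 CPM in sunitinib and 1970 ± 170 CPM in R+S tumors. Its R+S tumors (1844 to 2204 CPM) lay below all sunitinib tumors (2210 to 4160 CPM) but overlapped control tumors (2118 to 2640 CPM). Complex III measured 948 ± 86.9, 1136 ± 271 and 725 ± 75.9 CPM, with all R+S tumors (650.1 to 827 CPM) below all control tumors (850 to 1059 CPM) and all sunitinib tumors (871 to 1507 CPM). Nuclear complex IV genes measured 1384 ± 132, 1741 ± 528 and 1097 ± 112 CPM. Complex V measured 2989 ± 267, 3624 ± 673 and 2356 ± 221 CPM. In both, all R+S tumors also lay below all tumors of the other groups, though narrowly so for control. The highest R+S value was 1227.9 CPM in complex IV and 2659 CPM in complex V. The lowest control values were 1228.3 and 2677 CPM, and the lowest sunitinib values 1303 and 2798 CPM. The ratio of the R+S mean to the sunitinib mean was 0.674 for complex I, 0.638 for complex III, 0.630 for complex IV and 0.650 for complex V, but 0.919 for complex II. Complex II measured 566 ± 34.0, 555 ± 41.4 and 510 ± 21.9 CPM, and its 4 R+S tumors overlapped the sunitinib tumors. Their highest value, 538.9 CPM, lay just below the lowest control value, 539.6 CPM. The 13 mitochondrially encoded genes summed to 29698 ± 2672 CPM in control, 21346 ± 1203 CPM in sunitinib and 27056 ± 4497 CPM in R+S tumors.

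**Figure D1:**
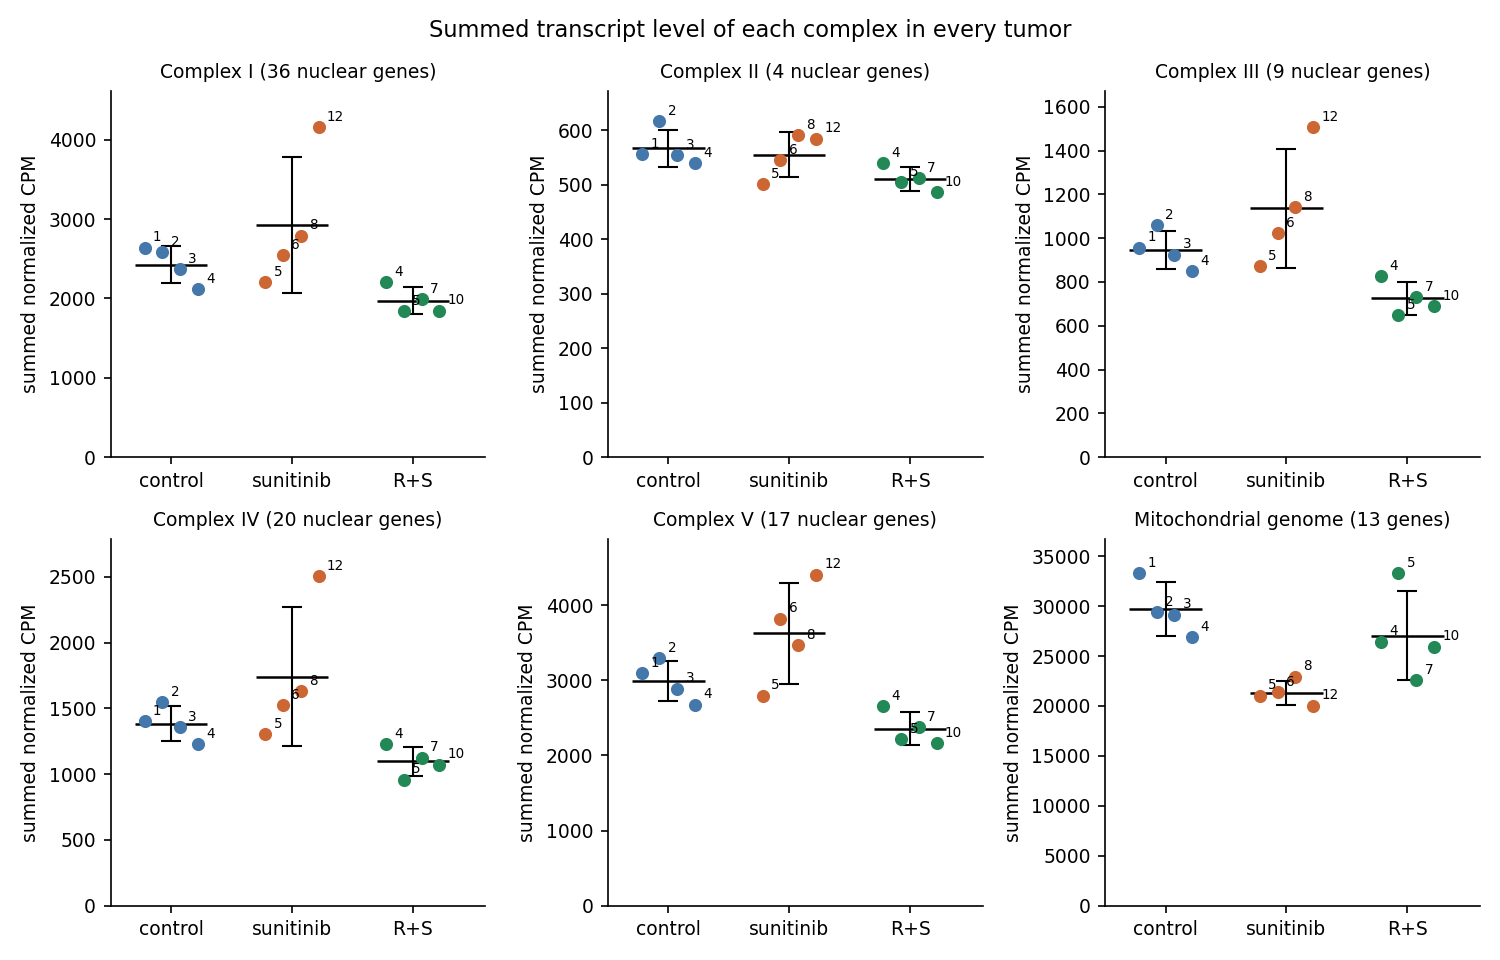
Summed normalized CPM of the nuclear genes of complexes I to V and of the 13 mitochondrially encoded genes (y axes, each starting at 0) in control, sunitinib and R+S tumors (x axes). Points are tumors with their numbers, and lines and bars give the mean and SD of 4 tumors; sunitinib tumor 12 is the highest point of complexes I, III, IV and V, and the 4 sunitinib tumors are the lowest group for the mitochondrial genome.

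Much of the wide spread of the sunitinib group in complexes I, III and IV came from tumor 12. In complex V, sunitinib tumors 5, 6 and 8 also ranged widely, at 2798, 3822 and 3470 CPM. Sunitinib tumor 12 had the highest value of all 12 tumors for 67 of the 84 nuclear subunits that were tested, a count that includes cytochrome c here and throughout, and its median log2 difference from the control mean was 0.71. The same median was -0.16 for sunitinib tumor 5, 0.12 for tumor 6 and 0.19 for tumor 8. It was -0.19 for R+S tumor 4, -0.49 for tumor 5, -0.33 for tumor 7 and -0.44 for tumor 10. The R+S tumors therefore all lay below the 4 sunitinib tumors on this measure, although R+S tumor 4 and sunitinib tumor 5 were close to each other and to control tumor 4, at -0.19. Tumor 12 also had the highest summed beta cell markers of the 12 tumors and the lowest acinar markers of the sunitinib tumors, and the part of tissue composition in its values was not tested.

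**Figure D2:**
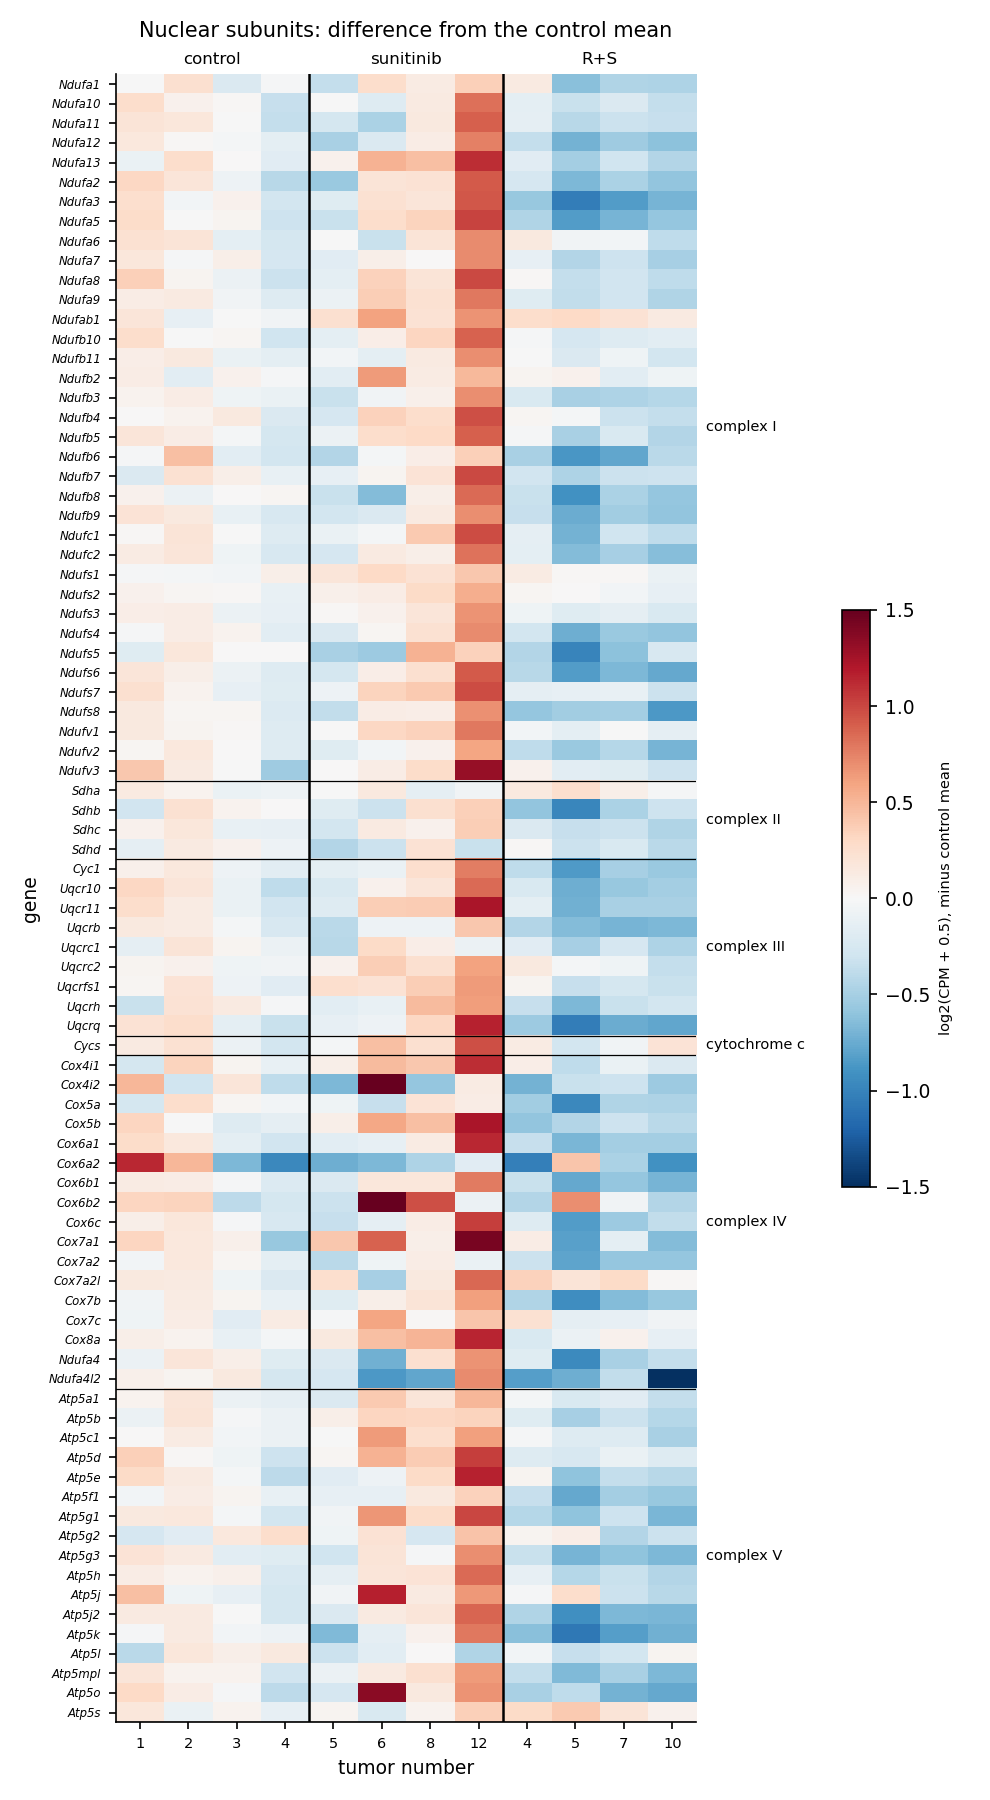
Heat map of the 84 tested nuclear subunits, cytochrome c included (rows, grouped by complex) in 12 tumors (columns, by group and tumor number). Color gives log2 CPM after a small pseudocount, minus the mean of the 4 control tumors; the column of sunitinib tumor 12 is red in most rows, the R+S columns are blue in most rows, and the Sdha row is close to white throughout.

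The comparison of R+S with sunitinib tumors addresses what rapamycin added, and it held most of the calls. By edgeR's quasi-likelihood test with Benjamini-Hochberg adjustment over 16645 genes, 27 members were lower and 1 was higher at an adjusted p under 0.05. Over all genes tested, 7.21% were called in this comparison, 4.58% lower and 2.63% higher. All 27 lower members were nuclear subunits: 8 of 36 in complex I, 5 of 9 in complex III, 4 of 17 tested in complex IV and 10 of 17 in complex V. No member of complex II and none of the 8 Ndufaf genes passed, although 2 of 4 and 2 of 8 had an unadjusted p under 0.05, and DESeq2 called 2 of each lower. Of the 84 tested nuclear subunits, 80 had a negative log2 fold change, with a median of -0.65 against -0.025 for all genes tested, of which 51.8% were negative. In 37 of the 84, every R+S tumor lay below every sunitinib tumor, which was the case for 9.73% of all genes.

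Complex V contained the most calls. Atp5o, which encodes a subunit of the stalk that holds the catalytic head in place, measured 56.0, 171, 74.0 and 107 CPM in sunitinib tumors 5, 6, 8 and 12 and 47.6, 51.0, 40.6 and 39.0 CPM in R+S tumors 4, 5, 7 and 10. All R+S tumors were below all sunitinib tumors, and the log2 fold change was -1.19 (SE 0.29, adjusted p = 0.037, edgeR). Tumor 6 alone was above 107 CPM, and without it the fold change was -0.82 and still called. Of the 12 fits that left out 1 tumor, however, 7 lost the call of Atp5o. Atp5o lies at chr16:91925214-91931687 on the minus strand (GRCm38), and 41.6% of its 50-base words also occur in other genes, so that its level is uncertain. The catalytic beta subunit, encoded by Atp5b, measured 879.6 to 1069 CPM in control tumors. It had 991, 1171, 1155 and 1182 CPM in sunitinib tumors and 823, 661, 749 and 694 CPM in R+S tumors, without overlap, for a log2 fold change of -0.62 (SE 0.13, adjusted p = 0.028, edgeR).

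Further called members of complex V included 2 of the genes for the membrane ring that turns with proton flow, Atp5g1 at -1.05 and Atp5g3 at -0.76. Atp5g1 measured 19.5 to 41.4 CPM in sunitinib and 12.4 to 16.3 CPM in R+S tumors. Atp5j2 (-0.98), Atp5k (-0.93) and Atp5mpl (-0.80) encode small subunits of the membrane part. Atp5k overlapped between the groups, since its 40.1 CPM in sunitinib tumor 5 was below the 41.1 CPM of R+S tumor 4. Atp5d (-0.72) and Atp5c1 (-0.61) encode the delta and gamma subunits of the rotor, and Atp5f1 (-0.62) a subunit of the outer stalk. Atp5a1, the alpha subunit of the catalytic head, had a log2 fold change of -0.43 with an adjusted p of 0.11 in edgeR, and its groups overlapped at 607 CPM in sunitinib tumor 5.

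In complex III, Uqcrq, a small subunit that lies near cytochrome b, measured 73.7, 76.1, 99.5 and 178 CPM in sunitinib tumors and 54.6, 38.9, 47.7 and 46.4 CPM in R+S tumors. Its log2 fold change was -1.19 (SE 0.27, adjusted p = 0.031, edgeR), and control tumors lay at 63.4 to 96.4 CPM, again above all R+S tumors. Uqcr11, another small subunit, fell by 0.99 on the log2 scale, with 1 overlap between sunitinib tumor 5 (48.4 CPM) and R+S tumor 4 (50.1 CPM). Among the subunits that carry electrons, Cyc1 (cytochrome c1) measured 102 to 193 CPM in sunitinib and 62.4 to 86.4 CPM in R+S tumors, a log2 fold change of -0.81. Uqcrfs1, the Rieske iron-sulfur protein, was called at -0.60, and Uqcrb, which contacts the quinone site, at -0.61. Uqcrh, the nuclear complex III gene with the highest level per length in control tumors (142 CPM per kilobase of exons), had -0.65 and an adjusted p of 0.062 in edgeR.

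In complex I, the strongest change was that of Ndufa3, an accessory subunit of the membrane arm. It measured 34.6, 46.1, 44.8 and 75.3 CPM in sunitinib tumors and 26.4, 19.0, 21.8 and 24 CPM in R+S tumors, with a log2 fold change of -1.14 (SE 0.22, adjusted p = 0.026, edgeR). The R+S values lay below all control values (32.5 to 46.9 CPM) as well. Ndufa5 (-1.04), Ndufs6 (-0.99) and Ndufa9 (-0.69) encode accessory subunits of the peripheral arm, as does Ndufs4 (-0.76), whose loss causes mitochondrial disease. Ndufa13 (-0.94), also known as Grim19, measured 78.0 to 161 CPM in sunitinib and 52.1 to 66.3 CPM in R+S tumors. Of the 7 nuclear core subunits, which form the electron path of the peripheral arm, 2 were called: Ndufs8 at -0.80 and Ndufv2 at -0.65. All 7 core subunits had R+S tumors below sunitinib tumors without overlap, with a median log2 fold change of -0.48, against -0.67 for the 29 accessory subunits, of which 9 did not overlap. Ndufb11, the nuclear complex I gene with the highest level per length in control tumors, had -0.34 and overlapped.

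In complex IV, the calls were Cox5b (-1.09), Cox6b1 (-0.86), Cox7b (-0.85) and Cox8a (-0.70), all subunits that surround the catalytic core made from mitochondrial DNA. Cox5b measured 49.7 to 110.1 CPM in sunitinib tumors and 30.8, 34.4, 37.4 and 35.2 CPM in R+S tumors, without overlap with either other group (SE 0.22, adjusted p = 0.026, edgeR). Cox4i1, the common form of subunit 4, overlapped between 217 CPM in sunitinib tumor 5 and 218 CPM in R+S tumor 4 and was not called (-0.71, adjusted p = 0.061, edgeR). Cox6a1 (-0.86) and Ndufa4 (-0.56) were not called either, with adjusted p of 0.066 and 0.17 in edgeR.

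No gene of complex II was called, nor was cytochrome c. Sdha, the flavoprotein that oxidizes succinate, measured 236, 263, 216 and 227 CPM in sunitinib and 262, 281, 253 and 234 CPM in R+S tumors, a log2 fold change of 0.13 (SE 0.11, edgeR adjusted p = 0.42). It was 1 of the 4 tested nuclear subunits with a positive value. Its partners Sdhb, with the iron-sulfur clusters, and Sdhc, a membrane anchor, had -0.62 and -0.42 with adjusted p of 0.063 and 0.071 in edgeR. Sdhd, the other membrane anchor, measured 95.9, 104, 152 and 104 CPM in sunitinib and 132, 104, 112 and 98.3 CPM in R+S tumors. These values overlapped. Whether complex II differed from the other complexes was not tested. Cycs measured 5.74 to 12.0 CPM in sunitinib and 4.75 to 6.81 CPM in R+S tumors and was not called (-0.48, adjusted p = 0.21, edgeR). Reads of Cycs that also align to its copies were not counted, since 26.1% of its 50-base words occur in other genes.

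**Figure D3:**
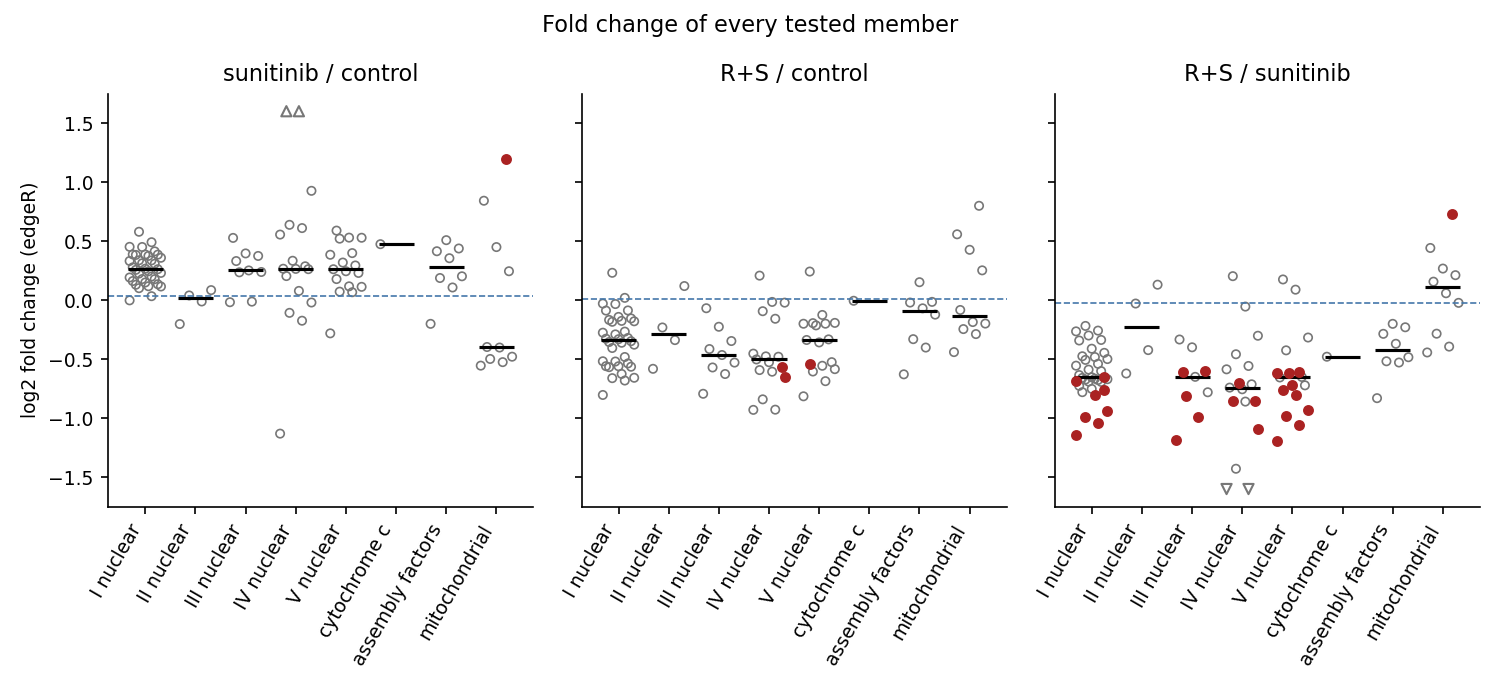
Log2 fold change (y axis, edgeR) of the tested members by complex and origin (x axis) for sunitinib against control, R+S against control and R+S against sunitinib. Filled red points had an adjusted p under 0.05, open points did not, triangles mark values beyond the axis, black lines are medians and the dashed blue line is the median of all genes; in the right panel the red points are the 27 nuclear subunits below 0 and mt-Nd5 above 0.

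The calls against sunitinib tumors depended on single libraries, while their direction did not. No member was called when R+S tumor 4, 5 or 7 was left out, and 2 were called without R+S tumor 10; edgeR then found 61, 63 or 71 members with an unadjusted p under 0.05 without tumors 5, 7 and 4, respectively. Without sunitinib tumor 5, 63 members were called, and without sunitinib tumor 8 or 12, 12 and 14 were called, all 12 and 14 being among the 28. Control tumors are in neither group of this comparison, but each refit repeated the filter, the normalization and the estimate of spread. Leaving out 1 control tumor left 9 calls without tumor 3, 14 without tumor 2, 18 without tumor 4 and 19 without tumor 1. With only the 8 compared tumors in the fit, 0 members passed, with 65 at an unadjusted p under 0.05, and DESeq2 called 60. In all of these fits between 89 and 93 of the 102 tested members had a negative fold change. With the mean of the acinar markers as a covariate, 0 members were called by edgeR, 68 had an unadjusted p under 0.05 and 92 were negative. Without tumor 12 the median over complex I was -0.38, and it was -0.50 for complex III, -0.47 for complex IV and -0.53 for complex V.

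The 27 lower members were compared at their promoters, the stretch from 250 bases before to 50 bases after the start of transcription in RefSeq (GRCm38.p6), which was used for 77 of the 95 nuclear members. The letters GCGCA, then any 1 base, then GCGC, a core of the site of NRF1, an activator of many respiratory chain genes, were searched on both strands. They stood in 24.7% of the 77 promoters and in 7.17% of the promoters of 17491 protein-coding genes. The ETS letters CCGGAAG, which GABP binds, stood in 23.4% and 12.9%, the YY1 letters AANATGGCG in 14.3% and 3.64%, and the HIF core letters ACGTG in 26.0% and 23.2%. Among the 23 members called lower that had a promoter, 26.1% held the NRF1 letters, against 25% of the 52 tested nuclear members that were not called lower. Of the 84 tested nuclear subunits, 80 had a negative fold change and 27 were called. The 52 are therefore not unchanged genes, and these shares do not compare lower with unchanged members. The same shares were 21.7% and 25% for ETS, 21.7% and 11.5% for YY1 and 26.1% and 25% for the HIF core. A match of these letters is a description and not a binding site. Matches are shown for 4 lower members of complexes I and V, all on the minus strand, written 5′ to 3′ with the NRF1 letters or their reverse complement in capitals.
Ndufa5, chr6:24527682-24527741: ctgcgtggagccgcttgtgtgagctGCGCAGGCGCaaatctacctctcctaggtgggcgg
Ndufs6, chr13:73328483-73328523: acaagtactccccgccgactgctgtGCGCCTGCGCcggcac
Atp5k, chr5:108434415-108434474: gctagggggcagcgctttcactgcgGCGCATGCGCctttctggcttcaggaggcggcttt
Atp5c1, chr2:10080433-10080474: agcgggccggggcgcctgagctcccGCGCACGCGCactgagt
The first base of the capitals lay 190 bases before the start in Ndufa5, 16 in Ndufs6, 50 in Atp5k and 17 in Atp5c1. In R+S tumors Ndufa5 measured 29.7 to 38.9 CPM against 42.3 to 108 CPM in sunitinib tumors, and Ndufs6 25.9 to 34.9 CPM against 38.9 to 88.8 CPM.

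Against control tumors, R+S tumors had lower values for most nuclear subunits but few calls. Cox7b, Cox7a2 and Atp5f1 were lower by edgeR, 3 of 102 tested members, where 4.16% of all genes were called, 2.61% lower and 1.55% higher. Of the 84 nuclear subunits, 79 had a negative log2 fold change, with a median of -0.36 against 0.01 for all genes. In 35 of them all R+S tumors lay below all control tumors, as did 11.9% of all genes. These comprised 14 of 36 genes in complex I, 2 of 4 in complex II, 4 of 9 in complex III, 8 of 17 in complex IV and 7 of 17 in complex V. R+S and sunitinib tumors were compared with the same control tumors, so these counts are not independent of each other.

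Cox7b (chrX:106015700-106022450) measured 89.4, 101, 94.8 and 85.5 CPM in control tumors and 67.8, 48.3, 58.5 and 62.0 CPM in R+S tumors, a log2 fold change of -0.65 (SE 0.16, adjusted p = 0.047, edgeR). Cox7a2, the form of subunit 7a found in most tissues, measured 127, 145, 133 and 118 CPM in control and 104, 74.9, 87.3 and 87.0 CPM in R+S tumors (-0.57, SE 0.13, adjusted p = 0.039, edgeR). Sunitinib tumors lay at 98.4 to 141 CPM and overlapped control tumors. Atp5f1 measured 193, 215, 205 and 185 CPM in control and 156, 117, 140 and 135 CPM in R+S tumors (-0.54, SE 0.13, adjusted p = 0.042, edgeR). For all 3 genes the groups did not overlap and the exact two-sided permutation test gave p = 0.0286, the smallest that 4 tumors against 4 can give.

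Further subunits lay below control without passing the test. Sdhb measured 103, 148, 131 and 126 CPM in control and 83.7, 63.5, 90.7 and 102 CPM in R+S tumors, with all R+S values below all control values (-0.58, adjusted p = 0.11, edgeR). Cyc1 (-0.57, adjusted p = 0.13) and Ndufs6 (-0.68, adjusted p = 0.11, both edgeR) did not overlap either. Cox5a, a subunit that contacts the catalytic core of complex IV, had -0.61 (adjusted p = 0.061) and Ndufa4 -0.48 (adjusted p = 0.32, both edgeR). With the acinar markers as a covariate edgeR called 0 members, with 1 at an unadjusted p under 0.05, and the sign of Sdhb, Cox5a and Ndufa4 turned, to 0.42, 0.30 and 0.53. Summed acinar markers did not overlap between control and treated tumors, and acinar content cannot be told apart from treatment in this comparison. With only the 8 compared tumors in the fit, 34 members were called, 33 of them lower, and without sunitinib tumor 12 in the fit 20 were called, all lower. There were 7 calls without sunitinib tumor 5 or 6, 1 without sunitinib tumor 8 or R+S tumor 4, and 0 without any 1 control tumor or without R+S tumor 5, 7 or 10, where edgeR found 24 to 35 members at an unadjusted p under 0.05.

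Sunitinib alone against control gave 1 call among the 102 members, the mitochondrial gene mt-Nd6, where 4.48% of all genes were called, 1.93% higher and 2.55% lower. There were 5 calls without sunitinib tumor 5 and 2 without sunitinib tumor 8, all higher. None of the 84 nuclear subunits was called by edgeR, 17 had an unadjusted p under 0.05, all higher, and DESeq2 called 3 higher. Of the 84, 74 had a positive log2 fold change, with a median of 0.26 against 0.03 for all genes. Without sunitinib tumor 12 the median over nuclear subunits was 0.03, and 43 of the 102 members were negative in place of 17. The positive median therefore rested on that tumor. For 6 of the 84 nuclear subunits all sunitinib tumors lay above all control tumors, as they did for 5.17% of all genes.

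Complex IV has subunits with tissue-specific forms, and 8 of its nuclear members are such forms. Cox7b2 had 25 reads, Cox8b 4 and Cox8c 0 over all 12 tumors, and they were not tested. Cox6a2 and Cox7a1, the forms of heart and skeletal muscle, measured 0.305 to 3.10 CPM and 0.657 to 4.94 CPM over the 12 tumors. Their common counterparts Cox6a1 and Cox7a2 measured 88.0 to 312 CPM and 74.9 to 145 CPM. Markers of skeletal and heart muscle summed to 1.53 to 6.38 CPM, with 1 of 12 expressed enough to be tested. Cox4i2, the form of subunit 4 known from lung and from cells that sense oxygen and a known HIF target, measured 0.434, 0.501 and 1.12 CPM in sunitinib tumors 5, 8 and 12 but 97.2 CPM in tumor 6. Control tumors measured 0.648 to 1.6 CPM and R+S tumors 0.416 to 0.707 CPM. The fitted log2 fold change of 4.57 was not called (adjusted p = 0.13, edgeR; exact permutation p = 0.886), and it was -0.61 without tumor 6 and -0.51 with the acinar covariate. Pericyte and smooth muscle markers summed to 192 CPM in tumor 6, the lowest of the 12 tumors, but the list was split. Rgs5, the largest part of the sum at 114 CPM, was also the lowest of the 12 tumors. Abcc9, at 9.84 CPM, lay above sunitinib tumors 5, 8 and 12 (1.73 to 4.93 CPM) and below control (10.8 to 16.8 CPM). The cell source of Cox4i2 in tumor 6 was not tested. Cox6b2, a form known from testis, was also highest in tumor 6, at 14.0 CPM against 0.693 to 2.66 CPM in the other 11 tumors. Ndufa4l2, a HIF target in many cells, was not called in any comparison. Sunitinib tumors lay at 4.72, 2.93, 3.11 and 9.66 CPM against 4.68 to 6.37 CPM in control tumors, and R+S tumors lay at 1.51 to 4.32 CPM, all below control.

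The 13 mitochondrially encoded members are made as long joint transcripts from both strands of a circular genome, then cut into single messages. Only 7 of them had sizable counts: mt-Nd1, mt-Nd2, mt-Nd4, mt-Nd5, mt-Nd6, mt-Cytb and mt-Co1. The other 6 had between 3 and 325 reads over all 12 tumors, and mt-Nd3, mt-Nd4l and mt-Atp8 were not tested. For mt-Co2, mt-Co3, mt-Atp6, mt-Nd3 and mt-Nd4l between 98.0 and 100% of the 50-base words also occur in nuclear copies of mitochondrial DNA annotated as pseudogenes, and reads that align to several places had not been counted. Their low values therefore say nothing of their expression. For mt-Nd4 the share was 62.2%, for mt-Co1 51.1%, for mt-Nd2 8.19% and for mt-Nd5 7.61%, and it was 0 for mt-Nd1, mt-Nd6 and mt-Cytb. mt-Atp8 shared no words with other annotated transcripts and still had only 3 reads. Copies outside annotated transcripts were not searched, and mt-Atp8 overlaps the start of mt-Atp6. The cause of its low count was not tested.

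The heavy strand codes for all members but mt-Nd6. Its 6 members with sizable counts had negative log2 fold changes in sunitinib against control tumors, between -0.55 (mt-Nd2) and -0.40 (mt-Cytb and mt-Nd4), and for 5 of them all sunitinib tumors lay below all control tumors, against 5.76% of all genes. The 3 tested with few reads, mt-Co2, mt-Co3 and mt-Atp6, overlapped between the groups. None of the 6 was called by edgeR, with 5 at an unadjusted p under 0.05 and 3 called lower by DESeq2. mt-Nd1, which shared no words with other annotated transcripts, measured 5001, 4251, 4226 and 3845 CPM in control and 2875, 2967, 3329 and 3092 CPM in sunitinib tumors (-0.50, SE 0.16, adjusted p = 0.12, edgeR). mt-Co1, the catalytic subunit of complex IV, measured 10909, 9715, 10195 and 8671 CPM in control and 7442, 7624, 7046 and 5328 CPM in sunitinib tumors (-0.53, adjusted p = 0.15, edgeR). Tumor 12, the highest for most nuclear subunits, was the lowest for mt-Co1. As a share of all reads on genes, the mitochondrial members held 2.74 to 3.53% in control, 1.96 to 2.25% in sunitinib and 2.29 to 3.36% in R+S tumors. Alignments to several places, listed per read on a gene, numbered 0.594 to 0.817 in control, 0.891 to 1.25 in sunitinib and 0.586 to 0.902 in R+S tumors, and their part in these differences was not tested.

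**Figure D4:**
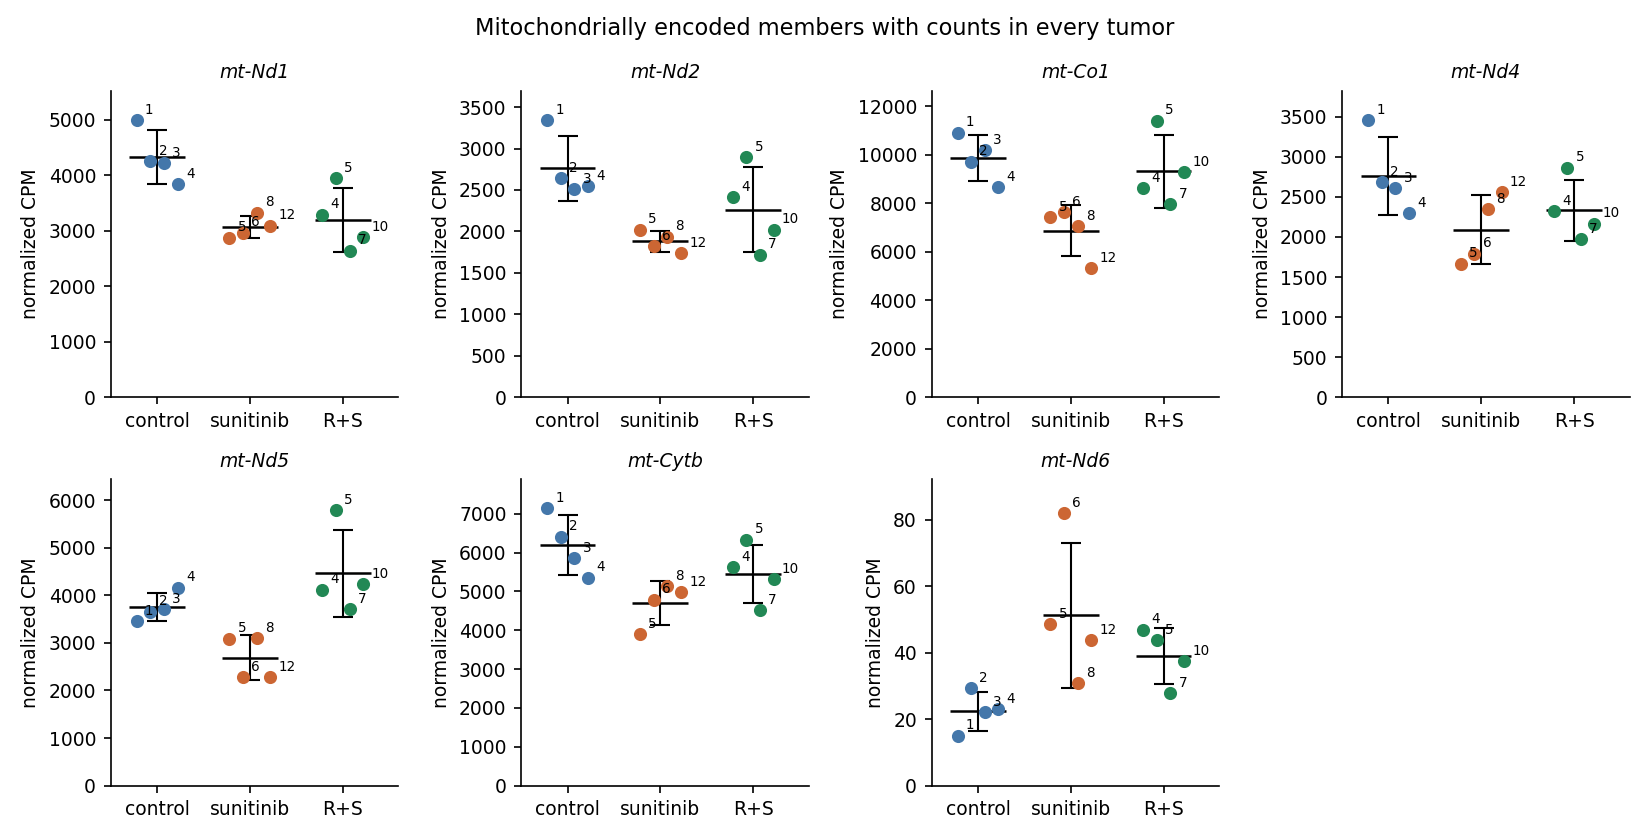
Normalized CPM (y axes, each starting at 0) of the 7 mitochondrially encoded members with sizable counts in control, sunitinib and R+S tumors (x axes). Points are tumors with their numbers, and lines and bars give the mean and SD of 4 tumors; mt-Nd1, mt-Nd2, mt-Co1, mt-Nd5 and mt-Cytb are lower in all sunitinib tumors than in all control tumors, and mt-Nd6 is higher.

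mt-Nd6, the only member on the light strand (chrM:13552-14070), had higher CPM in sunitinib tumors. It measured 15.1, 29.5, 22.1 and 23.1 CPM in control and 48.5, 82.1, 30.8 and 43.7 CPM in sunitinib tumors, without overlap (1.19, SE 0.30, adjusted p = 0.043, edgeR; exact permutation p = 0.0286). R+S tumors measured 47.0, 43.8, 27.9 and 37.5 CPM, overlapping both groups (0.80 against control, adjusted p = 0.15, edgeR). Per 1000 reads of the 6 heavy-strand members, mt-Nd6 had 0.453 to 1.00 reads in control, 1.34 to 3.86 in sunitinib and 1.24 to 1.78 in R+S tumors, so both treated groups lay above control on this ratio. The call was lost in 9 of the 12 fits that left out 1 tumor. The libraries were made with a strand-specific kit, but whether the counting used the strand is not given in the sources used here. mt-Nd6 lies opposite to transcribed heavy-strand sequence and overlaps the end of mt-Nd5, so that its reads may include those of the opposite strand. The libraries were also made from poly(A) RNA, and how well that step captured mt-Nd6 in each tumor was not tested.

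mt-Nd5 (chrM:11742-13565), a proton-pumping subunit of complex I, was the only member called higher in R+S than in sunitinib tumors. It measured 3090, 2286, 3104 and 2278 CPM in sunitinib tumors 5, 6, 8 and 12 and 4121, 5788, 3711 and 4239 CPM in R+S tumors 4, 5, 7 and 10, without overlap (0.73, SE 0.19, adjusted p = 0.040, edgeR). Control tumors, at 3464 to 4160 CPM, lay above all sunitinib tumors and overlapped R+S tumors. mt-Nd5 made up 15.6 to 17.4% of the reads of the 6 heavy-strand members in R+S tumors, 10.7 to 14.7% in sunitinib and 10.4 to 15.5% in control tumors. mt-Co1 also lay above all sunitinib tumors in all R+S tumors (0.44, adjusted p = 0.14, edgeR), which was the case for 8.9% of all genes, and the other 4 heavy-strand members had log2 fold changes between 0.06 (mt-Nd1) and 0.27 (mt-Nd2). Against sunitinib tumors all 36 nuclear members of complex I were negative, whereas mt-Nd1, mt-Nd2, mt-Nd4 and mt-Nd5 were positive and mt-Nd6 was negative (-0.39, adjusted p = 0.38, edgeR). The sign of mt-Nd1 turned to -0.06 without R+S tumor 5, and the call of mt-Nd5 was lost in 10 of the 12 fits that left out 1 tumor.

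Genes that build, regulate or inhibit the chain were counted by list, to be read against the 4.48% of all genes called with sunitinib against control, 4.16% with R+S against control and 7.21% with R+S against sunitinib. Of 46 tested assembly factors, the 8 Ndufaf genes included, 0 were called in either comparison with control by edgeR (unadjusted p under 0.05: 4 higher and 1 lower with sunitinib, 1 higher and 5 lower with R+S; DESeq2 called 3 higher and 1 lower, and 1 lower). Against sunitinib, Pet100, an assembly factor of complex IV, was the 1 call and was lower in R+S tumors (-0.83, adjusted p = 0.044, edgeR). The median over the list was -0.20, with 12 genes lower and 1 higher at an unadjusted p under 0.05 and 8 called lower by DESeq2. Of 18 regulators of nuclear and mitochondrial transcription, Mterf3, which restrains mitochondrial transcription, was higher in R+S tumors than in control (0.37) and sunitinib tumors (0.48), at 71.3 to 78.0 CPM against 54.0 to 60.5 and 49.1 to 56.0 CPM. Twnk, the mitochondrial DNA helicase, was higher in R+S than in control tumors (0.44), and Pprc1, a coactivator of the PGC-1 family, was lower in R+S than in sunitinib tumors (-0.52). Of 13 genes of coenzyme Q synthesis, Coq8a was higher in R+S than in sunitinib tumors (0.88), at 22.1 to 32.3 CPM against 12.3 to 16.6 CPM. Of 9 HIF-linked genes, Bnip3 and Pdk1, which limit mitochondrial number and pyruvate entry, were higher under sunitinib (2.09 and 1.52), Pdk1 was also higher in R+S than in control tumors (1.11), and the protease gene Lonp1 was lower in R+S than in sunitinib tumors (-0.66); this list shares Ndufa4l2 and Cox4i2 with the members. Of 6 tested uncoupling and inhibitor genes, Atpif1, which encodes the inhibitor of the ATP synthase, was lower in R+S tumors than in control (-0.83) and sunitinib tumors (-0.82), and Slc25a5, an ADP/ATP carrier, was lower than in sunitinib tumors (-0.52). Atpif1 measured 68.2 to 122 CPM in R+S, 137 to 206 CPM in control and 130 to 218 CPM in sunitinib tumors.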

How the data were processed

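RNA had been sequenced from 12 RIP1Tag2 tumors in stranded poly(A) libraries, and the authors deposited raw read counts per gene for each tumor, without normalization. The submitters' processing notes name cutadapt 1.2.1, TopHat2 2.0.9, HTSeq 0.5.4p3 and the GRCm38 build; the annotation release and the strand setting are not given in the sources used here. The closing totals of each table were left out. Identifiers were paired with symbols by GENCODE M21. Totals were 31872342 to 44215054 reads, so members under about 10 reads were imprecise.

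The counts were normalized by TMM and fitted for all 12 tumors at once with edgeR 4.0.16 (limma 3.58.1, R 4.3.3) in its robust quasi-likelihood form, after filterByExpr (minimum count 10, minimum total 15), which left 16645 genes and 102 of the 108 members. Adjusted p-values are Benjamini-Hochberg values over all 16645 genes per comparison, with 0.05 as threshold; the SE is the absolute log2 fold change divided by the root of F. For named members an exact two-sided permutation test of log2 CPM (prior count 2) over 70 arrangements was added. The fit was tested on simulated data. The members, gene lists and tests were chosen with earlier results of these data known.

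Named were up to 12 members per direction and comparison by fold change among those called, isoform pairs, complex II, cytochromes c and c1, the mitochondrial genes and the gene of highest CPM per kilobase in each complex; the other called members, Cox5a and the called pathway genes were named after their values were seen. Alternatives were DESeq2 1.42.0, RLE, upper-quartile and library-size scaling, mitochondrial or acinar genes left out of the library size, no filter, 10 counts in every tumor, only the 8 tumors compared, tumors of 1 title prefix summed, the acinar score as a covariate and each tumor left out.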

Additional observations from a re-analysis of the deposited data

Results flagged for a closer look

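The log2 CPM of the 44 named members that were tested, and 6 summed levels in CPM, were examined in each group of 4 tumors for 1 tumor far from the other 3, by Dixon's criterion for 4 values. Of 150 such sets of values, 2 stood out, and chance alone marks about 1 in 20. Cox4i2 measured 97.2 CPM in sunitinib tumor 6, against 0.434 to 1.12 CPM in the other 3 sunitinib tumors. mt-Co3 measured 0.805 CPM in R+S tumor 4, against 0.480 to 0.517 CPM in the other 3 R+S tumors, a value that rests on 29 reads of a gene whose sequence is almost entirely shared with nuclear copies. On CPM itself, a scale added after seeing the data, 6 sets of the named members stood out. These were the same 2, and Cox6b2 (sunitinib tumor 6, 14.0 CPM against 0.791 to 2.66), Cox6a1 (sunitinib tumor 12, 312 against 127 to 155), Sdhd (sunitinib tumor 8, 152 against 95.9 to 104) and mt-Nd2 (control tumor 1, 3345 against 2512 to 2645).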

How the results depend on the processing

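In R+S versus sunitinib, calls moved with the processing more than directions did. Directions were less stable in the comparisons with control. In R+S versus control, the acinar covariate turned the sign of some named members, listed below. In sunitinib versus control, the median over nuclear subunits fell from 0.26 to 0.03 in the fit without the highest sunitinib tumor, and more members were then negative. In the order sunitinib versus control, R+S versus control and R+S versus sunitinib, the main counts were 1, 3 and 28; DESeq2 gave 8, 17 and 60, the 8 compared tumors alone 0, 34 and 0, and the acinar covariate 0, 0 and 0. Summing tumors of 1 title prefix gave 2, 1 and 25. Library size only gave 6 for R+S versus control. Without the filter on low counts, R+S versus control gave 0 and R+S versus sunitinib 13; the medians of the mitochondrial members, which then include genes with few reads, were 0.077 for sunitinib versus control and 0.26 for R+S versus control. Leaving out 1 tumor gave 0 to 5, 0 to 20 and 0 to 63 calls, and medians of nuclear complex IV of 0.036 to 0.41 (sunitinib versus control) and -0.86 to -0.47 (R+S versus sunitinib). Under the acinar covariate, Cox4i2 turned to -0.51 (sunitinib versus control), and in R+S versus control Cox5a turned to 0.30, Sdhb to 0.42 and Ndufa4 to 0.53. The value of mt-Nd5, R+S versus control, turned to -0.00985 under it. With 1 tumor left out, Cox4i2 ranged from -0.61 (without sunitinib tumor 6) to 4.97, and mt-Nd1 in R+S versus sunitinib from -0.059 (without R+S tumor 5) to 0.14. The causes were not tested. No paired analysis was made, because the labels do not link tumors of different groups. Depth limits members under 10 reads, while members with sequence shared with other genes are limited by the reads that align to several places and were not counted.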
